A study of Saccharomyces cerevisiae with 79 samples.

Results

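The balance between the chemical steps of splicing was compared in the wild-type strain BY4741 of Saccharomyces cerevisiae after short and long exposure to label. The comparison set the 3 libraries labelled for a nominal 120 s against the 3 labelled for a nominal 720 s, paired by time course, which makes 6 of the 79 libraries of the series. Growing cells in synthetic medium received 4-thiouracil, a uracil analogue that enters newly made RNA, and labelled RNA was pulled down after biotinylation. The labelling times recorded for courses 1, 2 and 3 were 124, 120 and 126 s in the early group and 725, 720 and 728 s in the late group. All 6 libraries share the strain, the medium, the label and labelled Schizosaccharomyces pombe spike-in RNAs made in vitro, and no temperature is given. Whether each course was a culture of its own is not stated, so the p-values reflect how far these courses differ, and that spread may be technical.

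Splicing proceeds by a pair of transesterifications. In the first step the 5′ splice site is cut and its end is joined to the branch adenosine, which leaves a lariat intermediate still attached to the downstream exon. In the second step the exons are joined and the lariat is released. Multiplexed primer extension sequencing (MPE-seq) starts reverse transcription from primers in the downstream exons, so a read that stops at the branch point marks a lariat intermediate, and a read that runs on into the upstream part of the intron marks RNA before the first step. The lariat share used here is lariat reads as a percentage of unspliced reads, leaving out those that ended past the branch point (between it and the 3′ splice site). It says which step the unspliced RNA of an intron stands before, not how much of the gene's RNA is unspliced. A log2 change below is that of the ratio of lariat to pre-first-step reads, 720 s against 120 s.

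The early libraries held 1290749, 1860457 and 2667616 reads in courses 1, 2 and 3, and the late libraries 6216951, 6403402 and 2635488. Lariat reads numbered 30803, 74912 and 104823 early and 26464, 33006 and 20809 late. In each course the late library held fewer lariat reads, although it was the deeper one in courses 1 and 2 and of about the same depth in course 3. Of 308 introns in the tables, 223 had enough reads to be tested and 85 did not. In 31 of the tested introns at least 1 late library held fewer than 3 lariat reads. HAC1, whose intron is cut out by Ire1 and not by the spliceosome, had 0 lariat reads over the 30 WT libraries. It had 10306 pre-first-step reads in the 6 libraries compared. Whether a branch point was assigned to HAC1 is not given, so the 0 may be fixed by the assignment and cannot check it. If a branch point was assigned, a lariat share of up to 0.0291% is allowed in those 6 (3 counts, counting error only).

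The typical intron's lariat share moved little, while both classes of unspliced reads fell relative to spliced reads. The median share over the 223 introns was 25.5, 35.5 and 28.4% at 120 s and 25.8, 25.1 and 29.2% at 720 s in courses 1, 2 and 3. The late values lie inside the early range for courses 1 and 3 and just below it for course 2. The means were 29.8% ± 5.15 and 26.7% ± 2.16 (SD, n = 3), with a paired difference of -3.14 ± 6.29, and an exact two-sided sign-flip permutation test gave p = 1.0, where 3 pairs cannot go below 0.25. With all lariat reads pooled, the share was 43.7% ± 7.85 early and 37.3% ± 3.41 late and was lower in all 3 courses (exact permutation p = 0.25, the smallest possible). Over the whole time course the library medians averaged 27.9% after 90 s, 24.9% after 210 s, 30.7% after 540 s and 32.4% after 990 s of label, so 720 s is not the end of a steady fall.

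Measured against spliced reads, lariat reads fell in 208 of 223 introns (93.3%) and rose in none, with a median log2 change of -2.96. Pre-first-step reads fell in 212 (95.1%) and rose in none, with a median of -2.79. These tests used edgeR's quasi-likelihood method with Benjamini-Hochberg adjustment at 0.05. The same tests gave no rise at an unadjusted p under 0.05 either, but limma gave 1 rise of lariat reads. In the median intron, lariat reads went from 3.24% ± 0.833 to 0.501% ± 0.0988 of all reads and pre-first-step reads from 7.92% ± 0.802 to 1.41% ± 0.246 (SD, n = 3). With TMM factors, which scale each read class by a trimmed mean over introns, the medians became -0.12 and -0.16, and 10 introns were higher and 1 lower for lariat reads and 23 higher and 15 lower for pre-first-step reads. All these values are relative to spliced or all reads and do not show how the amount of unspliced RNA changed. Spike-in reads made up 0.6091, 0.5192 and 0.5615% of all reads at 120 s in courses 1, 2 and 3. At 720 s they made up 0.0241, 0.0253 and 0.0641%. Amounts relative to the spike-ins were not compared.

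**Figure D1:**
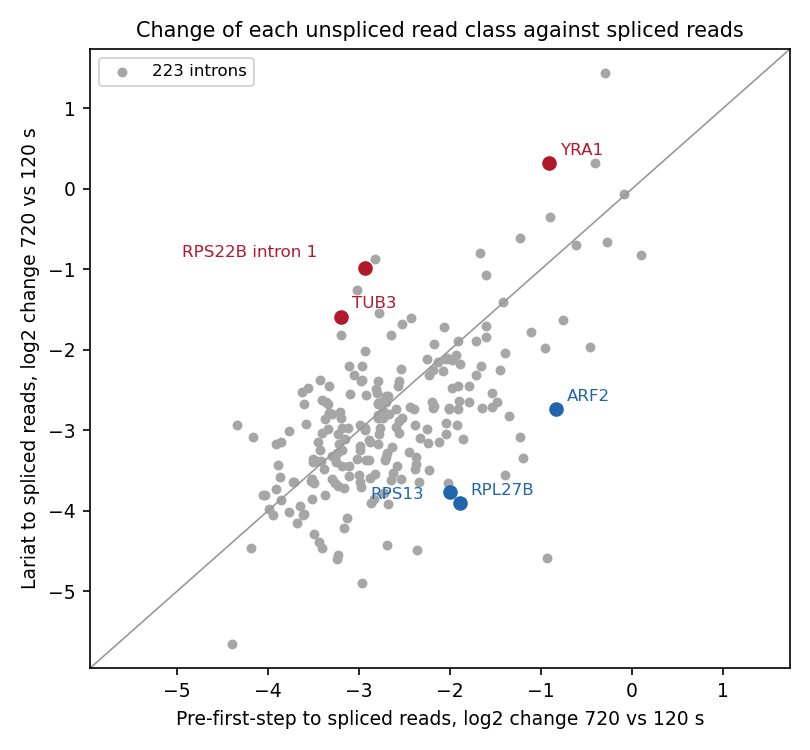
Log2 change from 120 to 720 s of pre-first-step reads (x axis) and lariat reads (y axis), each relative to spliced reads, in 223 introns (points). Most introns fall in both, around medians of -2.79 and -2.96. Introns above the diagonal gained lariat share and those below it lost lariat share: RPS22B intron 1, TUB3 and YRA1 (red) lie above, and ARF2, RPL27B and RPS13 (blue) below.

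The lariat share itself changed in few introns. One intron of a small subunit ribosomal protein gene, RPS22B intron 1, rose (1 of 223, 0.448%), and the introns of RPL27B, a large subunit ribosomal protein gene, and of ARF2, a small GTPase gene of vesicle traffic, fell (2 of 223, 0.897%). Each moved by close to 2 on the log2 scale, and 31 introns had an unadjusted p under 0.05. Fitted without the pairing by course, 1 intron was higher and 4 lower (1.79%), among them these 3. Under the TMM scaling the median change over all introns moved from -0.20 to 0.34, and 20 introns passed as higher and 2 as lower. The split between directions thus depends on the scaling: on the scale of the reads 82 changes were positive and 141 negative, and with TMM 153 and 70. The 3 introns named passed in the same direction on both scales.

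RPS22B intron 1 is known as a target of the RNase III enzyme Rnt1, which cuts a hairpin within it. Its lariat share was 62.1, 64.4 and 65.5% at 120 s and 88.3, 84.5 and 88.2% at 720 s in courses 1, 2 and 3. Every late library lay far above every early one. The means were 63.98% ± 1.75 and 87.0% ± 2.20 (SD, n = 3), a log2 change of 1.92 ± 0.52 (SE, edgeR adjusted p = 0.0213). Pre-first-step reads of this intron fell by 2.94 on the log2 scale against spliced reads, while lariat reads changed by -0.98 and did not pass (adjusted p = 0.116). The remaining intron of the same gene, RPS22B intron 2, which hosts the snoRNA snR44, had 40.3% ± 6.23 early and 36.5% ± 13.7 late. Its change of -0.26 did not pass, and the difference between the introns of this gene was not tested.

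RPL27B had lariat shares of 72.8, 81.0 and 82.7% at 120 s and 37.7, 50.1 and 57.9% at 720 s. The groups do not overlap, although the late libraries spread over a wider range than the early ones. The means were 78.8% ± 5.30 and 48.6% ± 10.2, with a log2 change of -2.01 ± 0.51 (edgeR adjusted p = 0.0179). Both read classes fell against spliced reads, lariat reads by 3.90 and pre-first-step reads by 1.89 on the log2 scale. Its paralog RPL27A had 64.5% ± 10.2 early and 60.2% ± 2.93 late, a change of -0.29 that did not pass, and the difference between the paralogs was not tested. Spliced reads of such close paralogs may be shared, and they do not enter the lariat share. Whether unspliced reads are shared too was not tested.

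ARF2 had shares of 43.1, 45.5 and 38.2% at 120 s and 14.4, 15.8 and 19.1% at 720 s. All late libraries lay far below the early ones, and the log2 change was -1.90 ± 0.51 (edgeR adjusted p = 0.0213; means 42.3% ± 3.71 and 16.4% ± 2.41). Lariat reads fell by 2.73 and pre-first-step reads by only 0.83 against spliced reads, and at 720 s pre-first-step reads still made up 8.53% of all ARF2 reads, after 12.2% at 120 s. With reads that end past the branch point kept in the denominator, the ARF2 change was -1.43 and did not pass (adjusted p = 0.144). Those reads made up 29.5% ± 5.43 of its unspliced reads early and 16.2% ± 12.8 late.

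**Figure D2:**
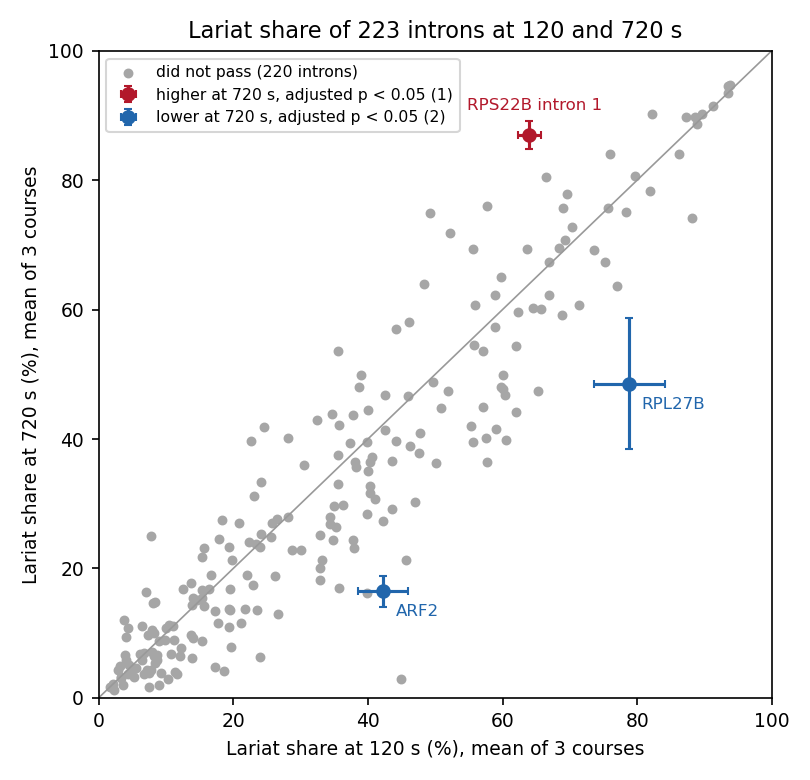
Lariat share of 223 introns at 120 s (x axis, %) and 720 s (y axis, %), each the mean of 3 courses; bars on the 3 called introns are SD. Most points lie near the diagonal of no change, RPS22B intron 1 lies above it at 63.98 and 87.0%, and RPL27B and ARF2 lie below it.

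The calls rest on all 3 courses. Leaving out any 1 course kept the direction and size of the 3 changes (1.77 to 2.09 for RPS22B intron 1, -2.12 to -1.94 for RPL27B and -2.16 to -1.77 for ARF2), but none of them then passed: adjusted p was 0.591 without course 1, 0.0632 to 0.0953 without course 2 and 0.405 without course 3. Without course 2 the 1 intron that passed was YRA1 (log2 change 1.53, adjusted p = 8.54e-06). Against the 540 s libraries in place of 720 s no intron passed by edgeR, 33 had an unadjusted p under 0.05, and the 3 introns changed by 1.497, -1.54 and -1.67. The 3 libraries made without label show the RNA that came through the pull-down without it, and they together had lariat shares of 91.1% (72 of 79 reads) in RPS22B intron 1, 36.5% (42 of 115) in RPL27B and 8.78% (18 of 205) in ARF2. In the authors' normalized tables, from which the unlabelled level is subtracted, the changes were as large (1.96, -2.06 and -1.99), although none passed in limma (adjusted p = 0.111 each; 215 introns tested, 22 with an unadjusted p under 0.05).

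The introns next in line had changes of similar size that did not pass. TUB3, the minor alpha-tubulin gene, had shares of 37.3, 43.0 and 67.3% at 120 s and 78.1, 73.7 and 72.8% at 720 s, without overlap (log2 change 1.60 ± 0.49, adjusted p = 0.0579). RPS13, a small subunit ribosomal protein gene, had 37.7, 43.6 and 38.2% and then 12.9, 17.4 and 18.2% (-1.78 ± 0.56, adjusted p = 0.0579), with 4 to 15 lariat reads in each late library. Both sets of values are clear of each other, and neither passed.

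YRA1, which encodes an mRNA export adaptor known to limit its own expression through its intron, had the smallest SE among introns that did not pass. Its shares were 42.5, 61.0 and 53.0% at 120 s and 71.9, 70.5 and 73.2% at 720 s (log2 change 1.23 ± 0.41, adjusted p = 0.0759). It is 1 of the 15 introns whose lariat reads did not pass as lower against spliced reads: they changed by 0.32 (adjusted p = 0.555), and its lariat reads made up 40.2% of all its reads early and 53.2% late. Pre-first-step reads of YRA1 fell by 0.91 (adjusted p = 0.0203).

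Other introns just short of the threshold lay in both directions. EPT1, an ethanolaminephosphotransferase gene, had 45.6% ± 14.1 early and 21.3% ± 1.12 late (adjusted p = 0.0579). URA2, which encodes the enzyme of the opening steps of pyrimidine synthesis, had 19.7% ± 1.32 and 7.81% ± 3.31 (adjusted p = 0.0916), and ASC1, the yeast RACK1 gene and host of a snoRNA, had 18.6% ± 2.86 and 4.22% ± 3.81 (adjusted p = 0.0984). VMA10, a vacuolar ATPase subunit gene, had 3.81% ± 2.20 and 12.04% ± 7.06 (adjusted p = 0.0763).

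At the other extreme stood introns with well-measured shares and small changes. RPS7A had 87.2% ± 4.33 early and 89.7% ± 0.508 late, and RPS23A 69.3% ± 12.3 and 70.8% ± 7.16, and their changes had SEs of 0.43 and 0.46. The protein phosphatase gene GLC7 had 59.8% ± 9.20 and 65.1% ± 4.68, and ACT1, the actin gene, 57.1% ± 4.92 and 53.7% ± 9.23. None of these 4 passed on the scale of the reads, where their changes ran from -0.20 to 0.32. With TMM they ran from 0.34 (ACT1) to 0.85, and RPS7A passed as higher (0.84, adjusted p = 0.0320). With all unspliced reads as denominator GLC7 changed by -0.67 and did not pass. Not passing here does not show that a share stayed the same.

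The highest and lowest shares changed little at 120 against 720 s in percentage points, and none of these introns passed. CGI121, which encodes a subunit of the tRNA-modifying KEOPS complex, had 93.8% ± 1.19 at 120 s and 94.7% ± 1.87 at 720 s. NOG2, a ribosome biogenesis GTPase gene, had 93.6% ± 1.35 and 93.5% ± 2.27, and RIM1, which encodes a DNA-binding protein of mitochondria, 93.5% ± 1.40 and 94.5% ± 2.78. At the low end VMA9 intron 1 had 1.65% ± 0.442 and 1.65% ± 0.559, RPL7B intron 1 1.97% ± 0.322 and 1.80% ± 0.445, and the aminopeptidase gene APE2 2.27% ± 0.765 and 1.24% ± 0.525. The APE2 change was -0.93 on the log2 scale, and APE2 passed as lower in sums over 90 to 150 s against 540 to 990 s (-0.96, adjusted p = 0.00173). Across the 223 introns the change had a Pearson r of 0.00 and a Spearman rho of -0.01 with the share at 120 s, as a description over introns that share libraries.

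Over all tested introns the courses moved together in part. All 720 s shares lay above all 120 s shares in 19 introns (8.52%) and below them in 25 (11.2%), and in 179 the groups overlapped. The log2 change was higher in all 3 courses in 26 introns, lower in all 3 in 53 and mixed in 144. Between courses the log2 change correlated across introns at Pearson r of 0.38 for courses 1 and 2, 0.29 for courses 1 and 3 and 0.18 for courses 2 and 3 (n = 223 introns, which share libraries).

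The 7 other labelled times show how the share of these introns moved between and around the points compared. RPS22B intron 1 began with a mean share of 63.4% at 90 s and 63.98% at 120 s, reached 68.6% at 210 s and 77.6% at 390 s, and ended with 82.8% at 540 s, 87.0% at 720 s, then 90.8% at 990 s. ARF2 had 28.7% at 90 s and its highest mean, 42.3%, at 120 s, after which came 30.3% at 210 s, 25.04% at 390 s, 19.2% at 540 s, 16.4% at 720 s, then 12.7% at 990 s. The first intron's means went up at each of these times, and ARF2's means went down at each after 120 s. RPL27B was less regular, with 65.9% at 390 s, 57.3% at 540 s, 48.6% at 720 s and then 54.9% at 990 s. At 300 s the library of course 2 stood apart, with a median share over introns of 11.6% beside 26.4 and 36.8% in courses 1 and 3.

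**Figure D3:**
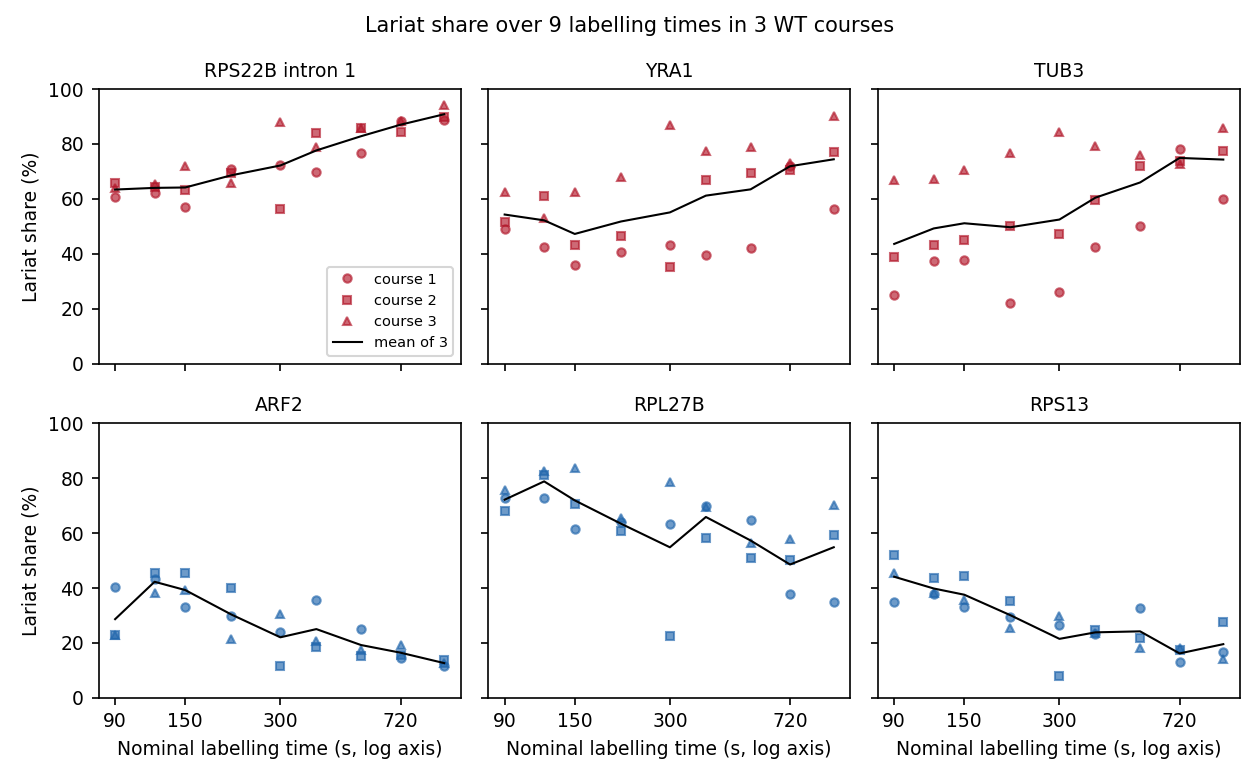
Lariat share (y axis, %) at 9 nominal labelling times (x axis, s, log scale) in 6 introns; symbols are the 3 courses and the line is their mean. The upper row (RPS22B intron 1, YRA1, TUB3) is higher at late times and the lower row (ARF2, RPL27B, RPS13) lower; the course 2 points at 300 s lie low in most panels.

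Sums over 90, 120 and 150 s against sums over 540, 720 and 990 s, with the course as the unit, gave 43 introns higher (19.3%) and 24 lower (10.8%), with a median log2 change of 0.15. They hold the 3 introns called at 120 against 720 s in the same directions: 2.01 ± 0.20 for RPS22B intron 1, -1.47 ± 0.20 for RPL27B and -1.81 ± 0.20 for ARF2. YRA1 (1.53, adjusted p = 1.83e-09), TUB3 (1.54, adjusted p = 2.48e-09), RPS13 (-1.38, adjusted p = 2.04e-06) and URA2 (-1.15, adjusted p = 5.89e-05) passed in these sums too. The sums include the 6 libraries above and so are not separate support for them.

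A slope of the log2 ratio on log2 labelling time over all 27 labelled libraries passed the test (adjusted p under 0.05) above 0 in 30 introns (13.5%) and below 0 in 15 (6.73%), 45 introns or 20.2% in all. Of all 223 slopes 138 were positive and 85 negative, with a median of 0.08 per doubling of labelling time. Slopes called upward or downward, or said to rise or fall, are those that passed. This fit counts the libraries of a course as separate samples. Fitted within each course, the slopes had the same sign in all 3 courses for each of these 45 introns, as they did for 80 introns upward and 40 downward among all 223. The 45 were picked by a fit of the same libraries, so this agreement is not separate support for their slopes. Without the 120 and 720 s libraries, 28 introns rose (12.6%) and 5 fell (2.24%) over the 21 libraries left, of which 25 and 5 are among those called with all libraries. In these 21 libraries RPS22B intron 1 had a slope of 0.77 (adjusted p = 6.91e-06) and ARF2 of -0.52 (adjusted p = 0.00195), and RPL27B had -0.34 and did not pass (adjusted p = 0.0625). The 5 that fell were ARF2, RPS13, URA2, RPL23A and TAD3 intron 1. Across introns the 120 to 720 s change correlated with the slope of the 21 other libraries at r = 0.65 and rho = 0.62 (n = 223 introns, drawn from the same 3 courses).

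**Figure D4:**
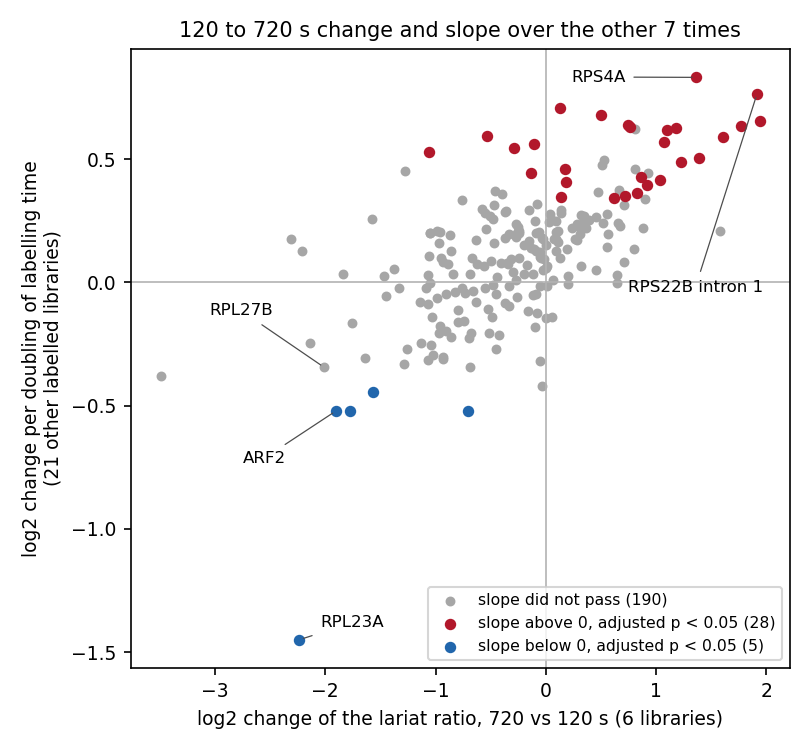
Log2 change of the lariat to pre-first-step ratio from 120 to 720 s (x axis, 6 libraries) and its slope per doubling of labelling time in the 21 other labelled libraries (y axis) for 223 introns; red and blue points are the 28 slopes above and the 5 below 0 that passed. The points run from lower left to upper right (r = 0.65), and RPS22B intron 1 and ARF2 lie toward opposite corners.

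The steepest slopes, chosen for naming after their values were seen, belong to genes of different functions. Upward these were RPS22B intron 1 (0.76 per doubling over 27 libraries), RPS4A, a small subunit ribosomal protein gene (0.74), PCC1, a KEOPS subunit gene (0.67), VMA10 (0.66) and TUB3 (0.60). RPS4A had only 4.07% ± 2.69 lariat share at 120 s and 9.40% ± 2.60 at 720 s, and PCC1 7.78% ± 1.71 and 25.03% ± 15.5. Downward the steepest was RPL23A (-1.24), with 17.3% ± 8.15 and 4.71% ± 4.84 on at most 3 lariat reads in each late library.

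By function, the secretory and sorting list, which did not include ARF2, stood on the upward side of the slopes. Of its 21 tested introns 7 rose and none fell over the 27 libraries, against 13.5% and 6.73% of all introns, and in the window sums 9 rose and none fell, against 19.3% and 10.8% of all introns. At 120 against 720 s none of the 21 passed, and their median change was 0.09 beside -0.20 for all introns. ARF2, a vesicle traffic gene left off this list, went the other way. It fell over the 27 libraries (slope -0.59, edgeR adjusted p = 1.2e-05), in the window sums (-1.81) and at 120 against 720 s. The counts thus hold for the list as drawn up and not for all genes of vesicle traffic. ERD2, the receptor that returns proteins to the endoplasmic reticulum, had 24.6% ± 2.13 at 120 s and 41.8% ± 17.7 at 720 s (slope 0.56, adjusted p = 3.67e-05). SEC27, a COPI coat subunit gene, had 57.7% ± 6.89 and 76.0% ± 9.13 (slope 0.58, adjusted p = 0.00105), and SEC17, the alpha-SNAP gene, 38.7% ± 13.5 and 48.0% ± 14.3 (slope 0.54, adjusted p = 0.00121). The rest of the 7 were VMA10, DID4, YIP3 and YOS1 intron 2. SAR1, the COPII GTPase gene, had 39.8% ± 6.04 and 39.6% ± 13.9 and did not pass.

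Ribosomal protein introns went both ways. Of 42 tested introns of the small subunit 1 was called higher at 720 s (RPS22B intron 1), and over the 27 libraries 6 slopes rose and 6 fell. Of 53 of the large subunit 1 was called lower (RPL27B), and 1 slope rose and 3 fell. Together they make up 95 of the 223 introns tested, 7 of the 30 upward slopes and 9 of the 15 downward ones. Among the fallers RPS10A had 57.6% ± 8.28 at 120 s and 36.4% ± 7.25 at 720 s, and RPS18A 60.5% ± 13.2 and 39.9% ± 3.48. The median change at 120 against 720 s was -0.29 in the small and -0.25 in the large subunit list, and under the TMM scaling both turned positive (0.25 and 0.29), as the median of all introns did.

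The other lists had no call at 120 against 720 s apart from the snoRNA hosts and the genes with 2 introns. The 1 call in each of these is RPS22B intron 1 again. Of the 13 cytoskeleton introns 11 had negative changes, beside 141 of 223 introns in all, with a median of -0.48 (0.06 under TMM). TUB1, the major alpha-tubulin gene, had 55.6% ± 14.5 at 120 s and 39.5% ± 5.90 at 720 s and fell over the 27 libraries (slope -0.26, adjusted p = 0.0217), while its paralog TUB3 rose. The difference between them was not tested. With all unspliced reads as denominator TUB1 also passed as lower at 120 against 720 s (-1.84, edgeR adjusted p = 0.0347). The list counts of slopes that follow rest on few introns and stand beside 13.5% upward and 6.73% downward among all 223. In the snoRNA host list 2 of 10 slopes rose and none fell. Of these EFB1, a translation elongation factor gene, had 28.1% ± 2.95 and 40.1% ± 11.1 (slope 0.53, adjusted p = 0.000339). In the ubiquitin list 1 of 6 slopes fell and none rose, and UBC4 had 21.7% ± 3.57 and 13.7% ± 3.66. Of 2 spliceosome introns tested none passed in either test: LSM7 had 40.04% ± 11.1 and 35.0% ± 14.2, and SMD2 13.9% ± 4.87 and 6.19% ± 4.42. Mitochondrial introns had 1 upward slope of 6, MCR1, with 15.7% ± 4.57 and 23.1% ± 4.42 (slope 0.33, adjusted p = 0.00604). Introns of genes known to regulate themselves had 1 of 6, YRA1, and DBP2, a DEAD-box helicase gene of this list, had 75.2% ± 6.11 and 67.4% ± 8.22 without passing. Translation factors had 1 upward slope of 4 (EFB1), and the mRNA export, helicase and chromatin list 1 of 9 (YRA1). The list drawn up as meiotic had 1 of 2 (SRC1), too few to speak for meiotic genes. The 3 tRNA modification introns had 1 upward slope (PCC1) and 1 downward (TAD3 intron 1), and the 15 introns of genes with 2 introns had 3 upward and 1 downward.

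**Figure D5:**
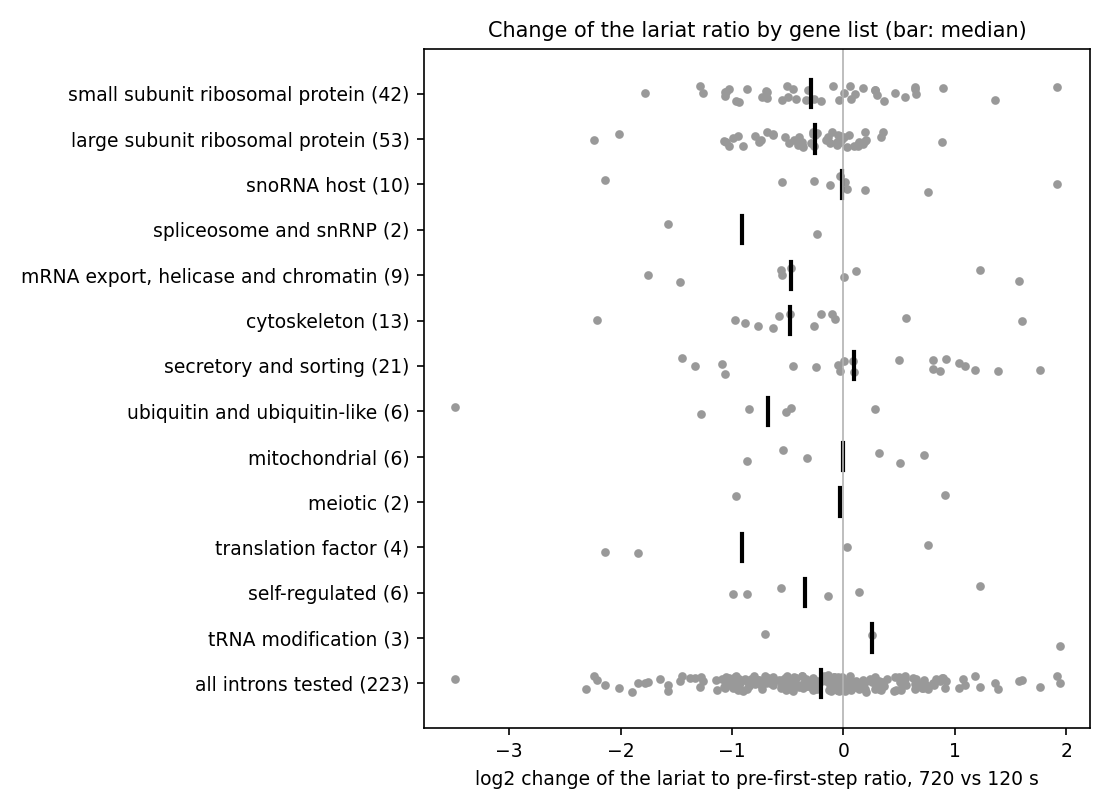
Log2 change of the lariat to pre-first-step ratio from 120 to 720 s (x axis) for each tested intron (points) by gene list (rows, number of introns in brackets); vertical bars are medians. The secretory list has a median of 0.09 and all introns -0.20 on the scale of the reads; under the TMM scaling the median of all introns is 0.34 and the lists shift with it.

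Sequence was compared for the 190 tested introns whose ends were placed in build R64. The stretch from the branch sequence to the 3′ splice site is the part of the intron that the second step has to span, so it is shown for introns that moved in each direction and for ACT1. Capitals mark the branch sequence and the last 3 bases of the intron. The introns are chrIV:1401801-1402184 (+) for RPL27B, chrIV:579479-580017 (+) for RPS13, chrXIII:23361-23658 (-) for TUB3, chrIV:1236843-1237608 (+) for YRA1 and chrVI:54378-54686 (-) for ACT1.
RPL27B: TACTAACaaattttcgtattatcgTAG
RPS13: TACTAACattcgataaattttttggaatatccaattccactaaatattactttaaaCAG
TUB3: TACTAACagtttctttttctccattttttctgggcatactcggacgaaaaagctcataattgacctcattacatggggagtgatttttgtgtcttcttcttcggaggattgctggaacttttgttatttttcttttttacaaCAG
YRA1: GACTAACttttttttttttattaTAG
ACT1: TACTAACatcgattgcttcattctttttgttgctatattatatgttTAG
TUB3 and YRA1, which both rose in the window sums, differ widely here: the branch adenosine of TUB3 lies 139 bases from the 3′ splice site and that of YRA1 20 bases, and YRA1 departs from the usual TACTAAC at its opening base. RPL27B, at 21 bases, and RPS13, at 53, fell in the sums.

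Over all 188 tested introns with a branch sequence, the branch adenosine lay 12 to 165 bases before the 3′ splice site, with a median of 34. The median was 34.5 bases in 22 introns with an upward slope and 42.5 in 12 with a downward slope. Distances of 80 bases or more occurred in 7 of the 188, of which 3 had upward slopes that passed (TUB3, VMA10 and RPS4A) and none a downward slope that passed. Of the 4 that did not pass, PSP2 (165 bases) and COF1 (132) had slopes below 0 in all 3 courses. The slopes of IMD4 and NCE101 differed in sign between courses. The third of introns with the longest distances (over 39 bases) did not lean upward. Of its 63 introns 6 had upward and 7 downward slopes (9.52% and 11.1%), beside 13.5% and 6.73% of all introns. Intron length had a median of 126 bases in 23 introns with upward slopes, 436 in 12 with downward slopes and 234 in all 190. Ribosomal protein introns made up 7 of the 30 upward and 9 of the 15 downward slopes, and length was not compared within that class. Across introns the slope of the 21 other libraries had rho = -0.23 with log10 intron length, and the 120 to 720 s change had rho = -0.06. With the distance from branch adenosine to 3′ splice site the rho values were -0.21 and -0.02. These values are given as a description over introns that share libraries.

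By 3′ splice site, introns ending in TAG had 14 upward and 6 downward slopes among 97, those ending in CAG 6 and 6 among 86, and those ending in AAG 3 and 0 among 7, where all introns had 13.5% upward and 6.73% downward. Introns with the branch TACTAAC had 17 upward and 11 downward slopes among 162, and those without it 6 and 1 among 28. The latter include CIN2 and RCF3, in which no branch sequence was found, and RCF3 is among the 6. The median change at 120 against 720 s was -0.24 with TACTAAC and -0.22 without it, and it was -0.16 in introns that begin with GTATGT and -0.48 in those that do not; all 4 medians turned positive under the TMM scaling.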

How the data were processed

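The introns, gene lists and tests were chosen with earlier results of these data known. The submitters' processing notes name the aligner STAR 2.7.2b and the genome build R64 for the MPE-seq reads; read assignment to introns is not given in the sources used here. The authors deposited whole-number counts of all, unspliced, lariat and branch-to-3′-splice-site reads. The authors' estimated counts add to the lariat reads their share of branch-to-3′-splice-site reads (8790 of 8790 cells, relative tolerance 0.0001). The signal values of the deposited normalized tables equal a factor times these, less the mean of the unlabelled libraries, floored at 0 (16902 of 16902 cells, tolerance 0.0001). All columns were assigned to samples.

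Pre-first-step reads are unspliced reads less lariat and branch-to-3′-splice-site reads, and spliced reads are all reads less unspliced reads. Both read classes of a library entered edgeR 4.0.16 (R 4.3.3) as columns of equal library size, with terms for library, read state by course, and read state by time. The last term was tested by quasi-likelihood with Benjamini-Hochberg adjustment at 0.05. Introns needed means of 20 reads not past the branch point and 5 lariat reads over the 6 libraries. Alternatives used DESeq2 1.42.0, limma 3.58.1 with pseudocounts of 0.5 and 2, other filters, scalings, times and courses. The libraries are paired by the course number in the labels. Deviations of same-numbered libraries correlated across introns at 0.0588, 0.160 and 0.0191, and those of differently numbered libraries at -0.33 to 0.25, so the values do not show the pairing, which follows from the time courses. Chi-squared per degree of freedom between replicate libraries ran from 287 to 1610, so none is a duplicate. Counts come from amplified reads.

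Named introns were those that passed, the 5 that did not with the smallest standard errors, the 3 highest and 3 lowest shares, the 2 of each list with most reads, and ACT1; 1 of them is not reported here. Those named for their slope, list members beyond these, paralogs and introns just short of the threshold were added after their values were seen. The branch sequence is the last TACTAAC of the intron or else its closest match with 1 mismatch. RPS22B intron 1 and ARF2 had no sequence placed here.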

Additional observations from a re-analysis of the deposited data

How the results depend on the processing

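The median log2 change at 120 against 720 s was -0.20, with 1 intron higher and 2 lower. Without the replicate block for course, 1 was higher and 4 lower. With TMM scaling 20 were higher and the median was 0.34. Raised count minimums (132 introns), the fit on all 27 labelled libraries and 120 against 990 s each gave 2 higher and 4 lower, the last with a median of 0.30. With limma and a pseudocount of 0.5, 2 were higher and 7 lower. For 150 against 720 s, 8 were higher and 4 lower; for the window sums, 43 and 24, with a median of 0.15. For 120 against 540 s and the authors' normalized tables, 0 were higher and 0 lower. Medians were 0.03 for 120 against 540 s and 0.01 for 150 against 720 s. Leaving out 1 course gave 0 to 1 higher, 0 lower, and medians of -0.37 to 0.00. The cause of these moves was not tested. DESeq2 gave 1 higher and 3 lower, and no filter (275 introns) 1 and 2. All unspliced reads as denominator gave 1 higher and 2 lower, and there TUB1 passed as lower and ARF2 did not. For lariat against spliced reads, TMM gave 10 higher, 1 lower and a median of -0.12, limma 1 higher, and leaving out 1 course 0 to 1 higher and 183 to 198 lower. For pre-first-step against spliced reads, TMM gave 23 higher, 15 lower and -0.16. The slopes gave 5 lower without the 120 and 720 s libraries, 28 lower with TMM (34 higher; chosen after seeing the data), and 13 to 23 higher and 8 to 9 lower without 1 course. Median shares were 21.3 and 19.0% with all unspliced reads as denominator and 40.7 and 36.4% with raised minimums. Few lariat reads at 720 s limit the comparison: late libraries held 20809 to 33006 over all introns.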

Other observations

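Reads that end past the branch point (before the 3′ splice site), left out of the lariat share, were compared in the same way after the data were seen. Against other unspliced reads they rose in 1 of 204 introns tested (0.490%), that of RPL32, a large subunit ribosomal protein gene, and fell in none. In RPL32 they made up 43.0, 51.7 and 60.7% of unspliced reads at 120 s and 79.9, 83.0 and 89.8% at 720 s in courses 1, 2 and 3. All late libraries lay above all early ones, with a log2 change of the ratio of 2.37 ± 0.50 (SE, edgeR adjusted p = 0.000636), and 8 introns had an unadjusted p under 0.05. Without course 1 or course 2 no intron passed by edgeR (1 had an unadjusted p under 0.05 in each case), and without course 3, 2 were higher and 3 lower, 51 had an unadjusted p under 0.05, and the median log2 change turned from 0.17 to -0.50. Without the replicate block 1 was higher and 0 lower. Over all introns these reads made up a median of 13.8% ± 2.89 of unspliced reads at 120 s and 16.0% ± 10.6 at 720 s (SD, n = 3), where course 3 had 28.1% beside 11.6 and 8.398% in courses 1 and 2.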
